A study of Mus musculus with 20 samples.

Results

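The genes described here make ribosomes in the nucleolus: Gnl3, Npm1, Nip7, Polr1b, Ncl, Fbl, Nop56, Nop58 and Dkc1. They were chosen as a named set of 9 nucleolar genes, with earlier results of these data known. A gene was kept where at least 1 array probe listed it as its single gene in the platform annotation. This held for 8 of the 9 genes, of 10843 genes with such a probe in the series and 10625 that were tested. Every one of the 5 Ncl (nucleolin) probes also listed a second gene, the small nucleolar RNA Snora75, so no value is given for Ncl. The other genes had 1 (Npm1), 2 (Polr1b, Fbl, Nop56), 3 (Gnl3), 4 (Dkc1), 5 (Nip7) and 6 (Nop58) probes, and each had a value on all 20 arrays.

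The series used 20 spotted arrays to read transcripts of mouse fibroblasts that carried the Hsf1 gene (HSF1 +/+, called WT) or lacked it (HSF1 -/-, called KO). In each genotype 3 arrays were of unheated cells (0 h) and 1 array each of cells at 0.5, 1, 2, 3, 4, 6 and 8 h of heat shock, joined here into an early window (0.5 to 2 h, n = 3) and a late window (3 to 8 h, n = 4). Each array compared a sample with the same pool of mRNA from unheated fibroblasts and fibroblasts heated for 1 h. A value is therefore a log ratio of sample over pool, taken as log2, centred on the median of its array, and it says nothing about which of the genes was more abundant. The labels give 1 cell type, name no line or clone, and give no batch, so genotype cannot be told apart from other differences between the cells that carried it.

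Ribosome production starts in the nucleolus, where RNA polymerase I transcribes the ribosomal RNA precursor. Small nucleolar ribonucleoproteins then modify this precursor, and assembly factors fold it, cut it and load it with ribosomal proteins. HSF1 is the main transcription factor of the heat shock response, and nucleoli are among the structures that heat disturbs in mammalian cells.

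The members cover these steps. Polr1b is the second largest subunit of RNA polymerase I. Fbl (fibrillarin) is the methyltransferase of the box C/D particles that methylate ribosomal RNA, and Nop56 and Nop58 are core proteins of the same particles. Dkc1 (dyskerin) is the pseudouridine synthase of the box H/ACA particles and also part of telomerase. Nip7 acts in the assembly of the large subunit and in precursor processing. Npm1 (nucleophosmin) is an abundant nucleolar chaperone, and Gnl3 (nucleostemin) is a nucleolar GTP-binding protein of growing cells.

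The start sites of 4 of the genes are shown because they stand for the patterns reported below: Gnl3, Dkc1 and Nip7 were lower in unheated KO cells, and Polr1b climbed in heated cells of both genotypes. Each line is the 120 bases before the start used in the RefSeq promoter table (build GRCm38.p6), 5′ to 3′ on the strand of the gene, in lower case, with a match to the ETS motif CCGGAAG in capitals.
Gnl3, chr14:31019132-31019251, minus strand: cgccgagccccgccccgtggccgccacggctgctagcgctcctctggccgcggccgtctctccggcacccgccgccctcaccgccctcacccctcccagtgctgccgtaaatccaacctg
Dkc1, chrX:75095734-75095853, plus strand: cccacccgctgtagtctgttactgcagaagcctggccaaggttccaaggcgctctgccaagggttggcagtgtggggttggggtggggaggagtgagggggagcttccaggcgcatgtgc
Nip7, chr8:107056757-107056876, plus strand: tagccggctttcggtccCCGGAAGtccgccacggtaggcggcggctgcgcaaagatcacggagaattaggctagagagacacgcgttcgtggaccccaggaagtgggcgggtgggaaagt
Polr1b, chr2:129100876-129100995, plus strand: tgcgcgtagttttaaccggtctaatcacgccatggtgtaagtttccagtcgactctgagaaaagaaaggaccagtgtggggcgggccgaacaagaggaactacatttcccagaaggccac

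In the 250 bases before the start, both strands were searched for 4 motifs: the E-box CACGTG bound by Myc and related factors, the ETS motif CCGGAAG, the CTCGCGAG motif, and TTCNNGAA, the core of the heat shock element that HSF1 binds. Across 32851 promoters of the same table they occurred in 6.02%, 6.91%, 0.761% and 7.17%. Among the members with a promoter there (Gnl3, Nip7, Polr1b, Nop56, Nop58, Dkc1 and also Ncl), 1 match was found, the ETS motif of Nip7 at 103 to 97 bases before the start. The same 250 bases held 81.6% G and C in Gnl3, 65.2% in Nop56, 60% in Nip7, 52% in Dkc1, 49.6% in Polr1b and 41.2% in Nop58, against a median of 52.4% over all promoters. These letters describe the windows and say nothing about which factors bound there.

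**Figure D1:**
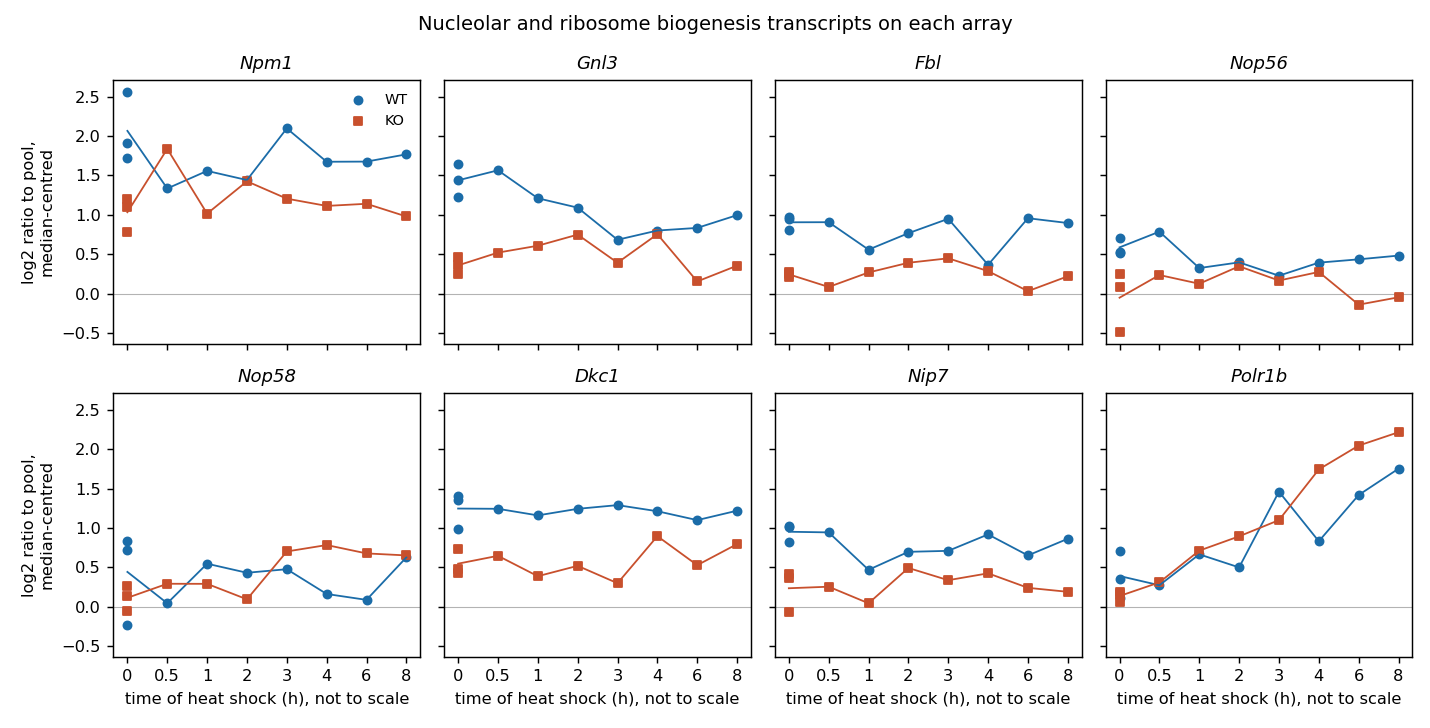
Median-centred log2 ratio to the common pool (vertical axis) of the 8 genes on each of the 20 arrays, by hours of heat shock (horizontal axis, categories not to scale); blue circles are WT arrays and orange squares KO arrays, and lines join the mean of the 3 arrays at 0 h to the single array at each later time. Gnl3, Fbl, Nop56, Dkc1 and Nip7 lie lower in KO at every time, while Polr1b climbs in both genotypes to 1.75 in WT and 2.21 in KO at 8 h.

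Before heat shock, most of these transcripts were lower in cells without HSF1. At 0 h 6 of the 8 genes passed the test in that direction (limma, two-sided, Benjamini-Hochberg adjusted p of 0.05 or less over 10625 genes), from Gnl3 at 2.11-fold lower to Nop56 at 1.56-fold lower. Of all genes tested, 3.6% were called lower. The difference was below 0 for 8 of the 8 genes, against 45.3% of all genes, with a median of -0.68 on the log2 scale against 0.05 over all genes. The KO arrays lay below every WT array for the same 6 genes, an arrangement that 11.9% of the 10037 genes with all 6 values showed. Because the members were chosen with earlier results of these data known, setting them beside all genes is a description and no independent evidence.

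Gnl3 gave the largest difference of the set. Its log2 ratios at 0 h were 1.23, 1.65 and 1.44 on the WT arrays and 0.47, 0.36 and 0.25 on the KO arrays. The groups were far apart, with a KO minus WT difference of -1.08 ± 0.17 (SE, n = 3 against 3, adjusted p = 0.000971). Its 3 probes gave differences of -1.50 to -0.57.

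Npm1, the nucleolar chaperone, was 2.04-fold lower. Its ratios were 2.56, 1.72 and 1.92 in WT and 1.21, 1.11 and 0.79 in KO. One WT array stood above the other WT arrays, and none fell into the KO range, so that the difference was -1.03 ± 0.22 (SE, adjusted p = 0.00838). Npm1 rests on a single probe.

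The assembly factor Nip7 read 0.83, 1.01 and 1.02 in WT and 0.41, 0.36 and -0.07 in KO. It was 1.64-fold lower (-0.72 ± 0.17, SE, adjusted p = 0.0155). Its 5 probes spread widely, from -1.32 to 0.01, with 4 of 5 below 0. With 1 probe per gene the difference was 0.01 (adjusted p = 0.984), but 3 probes tied for most values, and the other 2, not taken because of their order in the table, gave -0.67 and -0.46. It was -0.37 (adjusted p = 0.226) when only probes with a value on every array were used.

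Dkc1, the pseudouridine synthase, read 1.35, 1.41 and 0.98 in WT and 0.73, 0.48 and 0.43 in KO. That made it 1.62-fold lower (-0.70 ± 0.17, SE, adjusted p = 0.0160), and its 4 probes ran from -1.02 to -0.50.

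The box C/D proteins did not all give the same result. Fbl read 0.81, 0.97 and 0.94 in WT and 0.28, 0.25 and 0.21 in KO, a tight pair of groups and a 1.58-fold lower level (-0.66 ± 0.17, SE, adjusted p = 0.0251). Nop56 read 0.71, 0.52 and 0.54 in WT and 0.25, 0.08 and -0.48 in KO. Its KO arrays were scattered, and it was just inside the threshold (-0.64 ± 0.19, SE, adjusted p = 0.0477). Nop58, described with its probes below, had a difference of -0.33 ± 0.23 (SE, adjusted p = 0.464, 95% interval -0.81 to 0.16).

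Polr1b, the polymerase subunit, read 0.11, 0.36 and 0.70 in WT and 0.19, 0.06 and 0.16 in KO. The groups overlapped, and the difference of -0.25 ± 0.27 (SE, adjusted p = 0.656) had a 95% interval of -0.82 to 0.32, which spans no difference and one as large as those of Nip7 or Dkc1.

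The count at 0 h depended on the arrays and the scaling. Leaving out 1 array at a time left 1 to 5 of the 8 genes called: 3 without the WT array numbered 2, 3 without the KO array numbered 2, and 1, Gnl3, without the KO array numbered 3. The count was 3 without centring, 2 with quantile normalization, 2 when each array was scaled to the same width, and 0 when the 6 unheated arrays alone gave the spread, while 8 of 8 differences stayed below 0 under the first 3 of these settings. Array width, the median absolute deviation over probes, was 1.08 to 1.12 on the unheated WT arrays and 0.80 to 1.12 on the unheated KO arrays, and its part in the result was not tested.

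**Figure D2:**
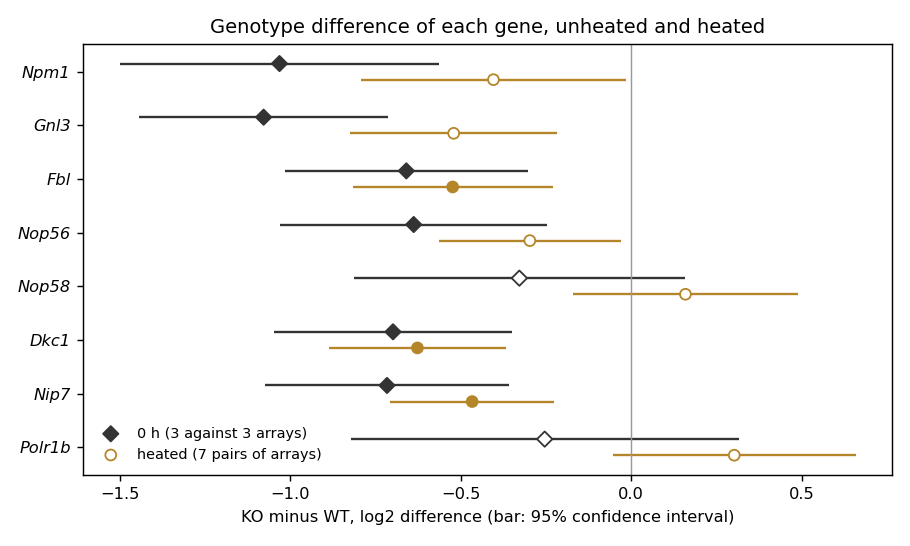
KO minus WT log2 difference (horizontal axis) of each gene with its 95% confidence interval; dark diamonds are unheated cells (3 against 3 arrays) and gold circles heated cells (7 pairs of arrays), filled where the adjusted p was 0.05 or less. At 0 h 6 genes are filled, from -1.08 for Gnl3 to -0.64 for Nop56, and in heated cells Dkc1, Fbl and Nip7 are filled, with Polr1b and Nop58 to the right of 0.

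The 14 heated arrays hold none of the unheated arrays, so they give a separate look at genotype, with each time as a pair of arrays. The choice of members was made with earlier results of these data known, which limits this comparison with all genes as well. In heated cells 3 of the 8 genes were lower in KO (limma with time as a block): Dkc1 1.54-fold, Fbl 1.44-fold and Nip7 1.38-fold. Of all genes, 3.13% were called lower. Differences were below 0 for 6 of 8 genes, against 47.5% of all genes, and the median was -0.44 against 0.02. The other 2, Polr1b and Nop58, were above 0.

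Dkc1 was the clearest of them. From 0.5 to 8 h the WT ratios were 1.24, 1.16, 1.24, 1.29, 1.21, 1.10 and 1.22, and the KO ratios were 0.65, 0.39, 0.52, 0.30, 0.90, 0.53 and 0.80. Every heated KO array lay below every heated WT array, which held for 1 of the 8 genes and for 2.28% of 9828 genes with all values. The difference was -0.63 ± 0.12 (SE, n = 7 pairs, adjusted p = 0.0152), close to the -0.70 of unheated cells.

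Fbl in heated cells read 0.91, 0.56, 0.77, 0.95, 0.37, 0.96 and 0.90 in WT and 0.09, 0.27, 0.39, 0.45, 0.29, 0.03 and 0.22 in KO. It was lower in KO at 7 of 7 times, least at 4 h, where the WT array lay within the range of the KO arrays. Its difference of -0.52 ± 0.13 (SE, adjusted p = 0.05) was just inside the threshold. Nip7 was also lower in KO at 7 of 7 times, by -0.69 to -0.20, with a mean of -0.47 ± 0.11 (SE, adjusted p = 0.0363).

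Gnl3 and Nop56 had the same sign at every time without passing. The KO minus WT difference of Gnl3 ran from -1.04 at 0.5 h to -0.05 at 4 h, with a mean of -0.52 ± 0.14 (SE, adjusted p = 0.0584). That of Nop56 had a mean of -0.30 ± 0.12 (SE, adjusted p = 0.186). An exact sign-flip permutation test over the 7 times, two-sided and unadjusted, gave p = 0.0469 for Npm1, 0.0781 for Polr1b and 0.328 for Nop58. For Dkc1, Fbl, Nip7, Gnl3 and Nop56 the exact test gave p = 0.0156, the smallest that 7 pairs allow, which restates that all 7 differences had 1 sign.

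Npm1 broke the pattern at 1 time. At 0.5 h its ratio was 1.84 in KO and 1.34 in WT, and from 1 to 8 h WT read 1.56, 1.44, 2.10, 1.67, 1.68 and 1.77 against 1.02, 1.43, 1.21, 1.11, 1.14 and 0.98 in KO. The mean difference was -0.40 ± 0.17 (SE, adjusted p = 0.216). With both 0.5 h arrays left out, a choice made after seeing the values, it was -0.56 (adjusted p = 0.0714).

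Polr1b was higher in KO at 6 of 7 heated times, by 0.30 ± 0.16 on average (SE, adjusted p = 0.311, 95% interval -0.05 to 0.66). Nop58 was higher at 5 of 7, by 0.16 ± 0.15 (SE, adjusted p = 0.578). Neither difference was larger than the spread between times.

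These calls were close to the threshold. Dropping any 1 of the 7 times left Dkc1 alone called, with Nip7 at an adjusted p of 0.0513 to 0.0979 and Fbl at 0.0508 to 0.137. Reading each gene from 1 probe left 0 of the 8 called, with Dkc1 at -0.39 (adjusted p = 0.296) from 1 of 3 probes tied for most values, of which the other 2 gave -0.92 and -0.25.

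The next comparisons set heated cells against unheated cells of the same genotype. Hspa1a, the inducible Hsp70 chaperone, rose by 5.83 ± 0.75 (SE, adjusted p = 0.00184) in the late window of WT and read -0.01 ± 0.75 in KO. In the early window of WT it read 3.64 ± 0.80 without passing (SE, adjusted p = 0.123). In the early window 0 of the 8 genes were called in WT, where 0.0376% of all genes were, and 0 in KO, where 0% were (limma). At an unadjusted p under 0.05 the counts were 1 gene of the 8 and 1202 of all genes in WT, and 0 and 793 in KO. The 1 gene was Npm1, whose WT ratios of 1.34, 1.56 and 1.44 all lay below the 3 unheated WT arrays, as did 7.94% of all genes with values (-0.62 ± 0.22, SE, adjusted p = 0.328).

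In the late window Polr1b rose in both genotypes, and Gnl3 fell in WT. These were 1 of 8 genes called higher in WT, where 3.6% of all genes were, 1 of 8 called lower, where 3.67% were, and 1 of 8 called higher in KO, where 3.86% were. The median late change of the 8 genes was -0.14 in WT and 0.08 in KO, against -0.02 in both over all genes.

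The Polr1b ratios of WT from 0.5 to 8 h were 0.27, 0.66, 0.50, 1.46, 0.83, 1.42 and 1.75. Those of KO were 0.31, 0.71, 0.89, 1.10, 1.74, 2.04 and 2.21, higher at each later time. Every late array lay above every unheated array of its genotype, an arrangement of 9.24% of all genes in WT and 10.3% in KO. The late minus 0 h change was 0.97 ± 0.25 in WT (SE, n = 4 against 3, 1.97-fold, adjusted p = 0.0285) and 1.64 ± 0.25 in KO (SE, 3.11-fold, adjusted p = 0.000854).

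Both Polr1b probes gave the same picture, 0.91 and 1.04 in WT and 1.54 and 1.74 in KO. The KO change exceeded the WT change by 0.66 ± 0.36 (SE, adjusted p = 0.628, 95% interval -0.09 to 1.42), so the changes were not shown to differ between genotypes. The KO call was kept under each alternative run. The WT call was lost when arrays were scaled to the same width (1.03, adjusted p = 0.0662), when only WT late and 0 h arrays gave the spread (adjusted p = 0.108), and without the WT 0 h array numbered 1 (0.0977), the one numbered 2 (0.0670), the 6 h array (0.0627) or the 8 h array (0.0817).

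Gnl3 went the other way in WT. After 1.57 at 0.5 h, its WT ratios were 1.21, 1.09, 0.68, 0.80, 0.84 and 1.00, and each late array lay below each unheated one, as was so for Nop56 and for 10.7% of all genes. The change was -0.61 ± 0.16 (SE, 1.53-fold lower, adjusted p = 0.0321). In KO, where Gnl3 was already low at 0 h, the heated ratios were 0.52, 0.61, 0.75, 0.39, 0.76, 0.16 and 0.36, and the late change was 0.06 ± 0.16 (SE, adjusted p = 0.880).

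The difference between these changes was 0.66 ± 0.23 (SE, adjusted p = 0.447). Both changes are taken from unheated arrays that also gave the genotype difference of Gnl3 at 0 h, so these are not separate pieces of evidence. The WT call was lost without centring (adjusted p = 0.0688), with quantile normalization (-0.43, 0.114), with scaled widths (-0.38, 0.172) and with only the contrasted arrays (0.125). It was also lost without the WT 0 h array numbered 2 (-0.51, 0.108) or 3 (0.0668), or the 3 h (0.0591), 4 h (0.0643) or 6 h array (0.0647).

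No member passed the test of a difference between the genotypes in their change from 0 h, early (0 of 8, with 0% of all genes called) or late (0 of 8, with 0.0941% called). At an unadjusted p under 0.05 there was 1 of the 8 genes early and 2 late, among 889 and 926 of all genes (limma). The early one was Npm1, at 1.01 ± 0.31 (SE, adjusted p = 0.578), and the late ones were Gnl3 and Nop58, the latter at 0.69 ± 0.31 (SE, adjusted p = 0.553). The medians of the 8 were 0.32 early and 0.33 late, against -0.05 and -0.02 over all genes. Alternatives other than leaving out 1 array gave early medians of 0.06 to 0.605 and late medians of 0.27 to 0.61. Without centring, 3 of the 8 were below 0 early and 0 late. These values share the unheated arrays, on which the KO level was below the WT level for every member.

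Nop58 is the member whose value depended on how its probes were joined. Of its 6 probes, 2 spots listed the same clone and still disagreed. At 0 h one of these spots read 1.90, 1.95 and 1.94 in WT and 1.19, 0.69 and 0.74 in KO. The other read -6.93 and -1.09 in WT, with 1 missing value, and -1.14, -0.30 and -1.49 in KO, so that the 6 probes gave differences from -1.12 to 3.04.

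Over all 6 probes Nop58 read -0.23, 0.83 and 0.72 in WT and 0.14, 0.26 and -0.06 in KO at 0 h. The single low WT array, -0.23, is the array with the -6.93. Without the discordant spot, the unheated ratios were 1.11, 1.22 and 1.06 in WT and 0.39, 0.37 and 0.23 in KO. The KO arrays then lay below the WT arrays, and the difference was -0.80 ± 0.17 (SE, adjusted p = 0.00814). Of the 6 probes 4 were below 0, at -1.12 to -0.87, and a further probe kept in this value gave 0.003. Using only probes with a value on all arrays left out this same spot, which has a missing value, and no other Nop58 probe. That setting was chosen without regard to the spot, but its difference had to be the same (adjusted p = 0.00621) and is no separate evidence. Leaving out the spot was chosen after seeing the data, and so was the median of the probes, which gave -0.65 (adjusted p = 0.0269).

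In heated KO cells the 6-probe Nop58 ratios were 0.29, 0.29 and 0.09 early and 0.70, 0.78, 0.68 and 0.65 late, every late array above every unheated KO array, as in 10.3% of all genes. The late change in KO was 0.59 ± 0.22 (SE, adjusted p = 0.0926). Without the discordant spot it was 0.59 ± 0.16 (SE, 0.0242), with the median of the probes 0.53 (0.0387), and in WT it was -0.48 (0.0781) without that spot. The difference of those late changes, KO minus WT, was then 1.07 ± 0.23 (SE, adjusted p = 0.0938), and the heated genotype difference was 0.04 (0.923).

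**Figure D3:**
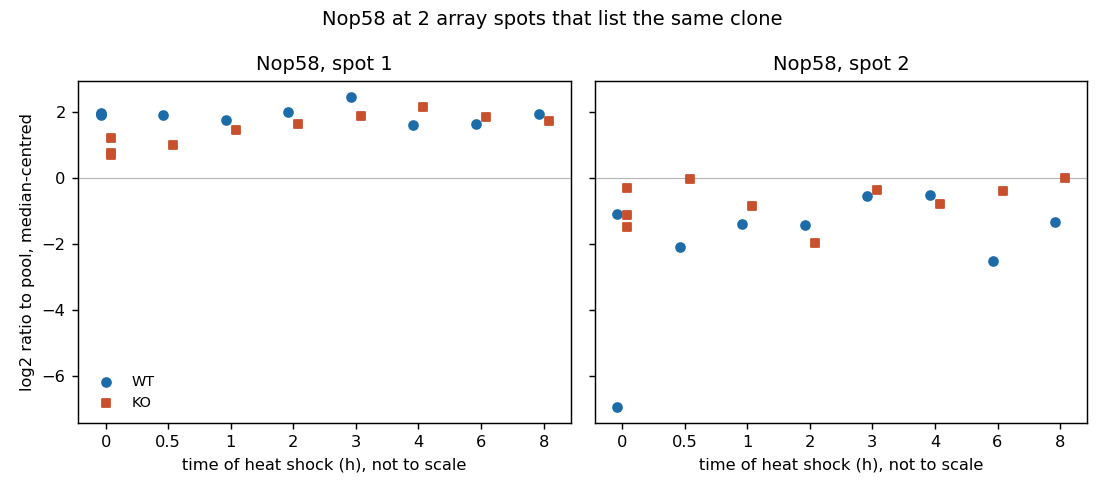
Median-centred log2 ratio (vertical axis) of Nop58 at the 2 array spots that list the same clone, by hours of heat shock (horizontal axis, not to scale), with WT arrays as blue circles and KO arrays as orange squares. Spot 1 lies between 0.69 and 2.45 on all arrays, with the 3 unheated KO arrays and the KO array at 0.5 h lowest, and spot 2 lies at or below -0.02 with 1 unheated WT array at -6.93.

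The wider ribosome biogenesis machinery was read through 4 further lists: RNA polymerase I, small nucleolar particles, the small subunit processome and large subunit assembly. Of 165 listed genes 139 were measured. At 0 h 0 of these were called higher and 7 lower in KO, with 103 of 139 below 0 and a median of -0.18, against 0.05 over all genes and -0.68 over the 8 members. The 7 called are 5.04% of the 139, near the 3.6% of all genes called lower. Without centring the counts were 4 lower and 86 of 139 below 0, with a median of -0.07, against 0.16 over all genes in that setting.

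By list, the called counts at 0 h were 1 of 17 for RNA polymerase I, 0 of 13 for small nucleolar particles, 2 of 42 for the small subunit and 4 of 68 for the large subunit. The particle list had no call but the lowest median of the 4, -0.51, with 11 of 13 below 0. At an unadjusted p under 0.05 (limma) this list had 1 of 13, beside 2213 of all 10625 genes. Its median was -0.40 without centring (8 of 13 below 0), -0.26 with quantile normalization and -0.29 with scaled widths. The other medians were -0.18, -0.19 and -0.18.

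Among the genes called were Rcl1 (-1.17 ± 0.19, SE, adjusted p = 0.00093), an RNA cleavage factor of the small subunit, and Wdr43 (-0.90 ± 0.16, SE, 0.00247), a protein of the same processome. Of the large subunit factors, Mak16 (-0.90 ± 0.15, SE, 0.00109) and Mrto4 (-1.15 ± 0.27, SE, 0.0146) had the smallest adjusted p. Polr1d, a subunit that RNA polymerases I and III share, was called at -0.59 ± 0.17 (SE, 0.0483).

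**Figure D4:**
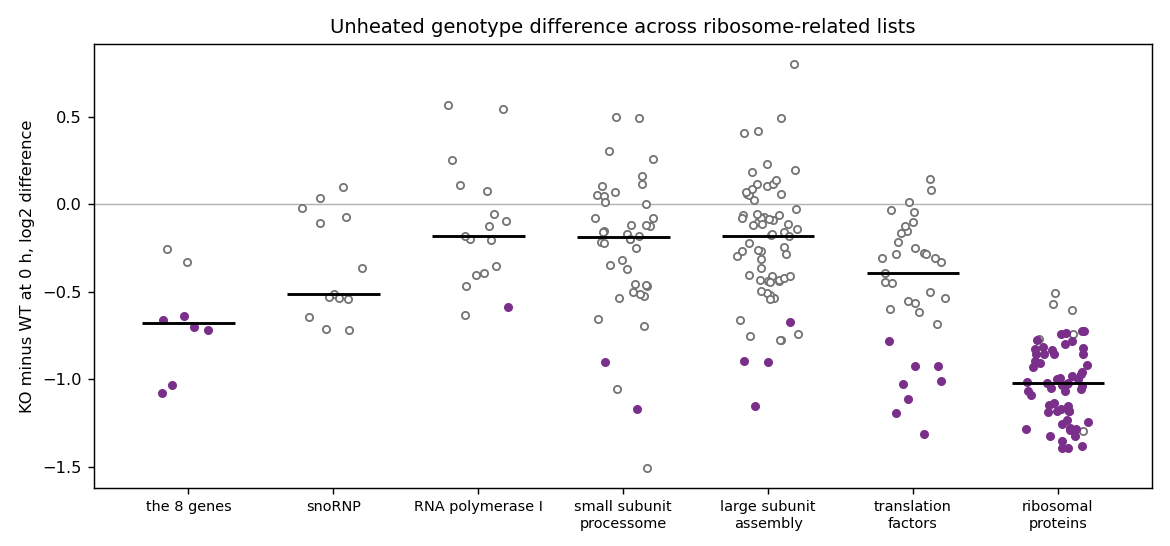
KO minus WT log2 difference in unheated cells (vertical axis) of each measured gene in the 8 nucleolar genes, the 4 biogenesis lists without those 8, translation factors and cytosolic ribosomal proteins (horizontal axis); a point is a gene, filled where the adjusted p was 0.05 or less, and a bar is the median of a list. The medians are -0.68 for the 8 genes, -0.51 for small nucleolar particles, -0.18 to -0.19 for the other biogenesis lists, -0.39 for translation factors and -1.02 for ribosomal proteins.

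Ribosomal proteins, the cargo of this machinery, had the lowest values: 57 of 63 were called lower at 0 h, 63 of 63 were below 0, and the median was -1.02, or -0.91 to -0.72 under the other scalings, with 63 of 63 still below 0. Of 35 translation factors 8 were called lower, with a median of -0.39, where 3.6% of all genes were called lower. The 16 growth regulators of ribosome synthesis, among them Myc, had 0 calls and a median of 0.22. At an unadjusted p under 0.05 (limma) there were 5 of the 16, beside 2213 of all 10625 genes. Earlier results of these data were known when these lists were made, so they are no independent evidence of a direction.

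In heated cells the 4 biogenesis lists had 4 genes lower and 1 higher of 139, with a median of -0.16. The lower share, 2.88%, was near the 3.13% of all genes. Lower were Rcl1 (-0.77 ± 0.16, SE, adjusted p = 0.0240), Mak16 (-0.61 ± 0.13, SE, 0.0257), Ftsj3 (-0.90 ± 0.19, SE, 0.0244), a precursor processing factor, and Snu13 (-0.62 ± 0.14, SE, 0.0342), which binds the same box C/D RNAs as Fbl. Nob1, the nuclease that makes the final cut in small subunit RNA, was higher (1.29 ± 0.23, SE, 0.0298). At 0 h Nob1 had the opposite sign, with a wide error (-1.51 ± 1.08, SE, adjusted p = 0.480). With scaled widths 0 of 139 were called higher and 2 lower in heated cells, so the Nob1 call was lost. Ribosomal proteins had 28 of 63 lower, with a median of -0.56, and translation factors 11 of 35, with a median of -0.27.

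With heat shock, single assembly factors rose beside Polr1b while the medians of the lists were close to 0. Early, 0 of 139 were called in either genotype (limma), where 0.0376% of all genes were in WT and 0% in KO. At an unadjusted p under 0.05 there were 15 of 139 in WT and 6 in KO, among 1202 and 793 of all 10625 genes. Late, 7 were higher and 2 lower in WT (median -0.02), and 11 were higher and 3 lower in KO (median 0.07). The higher shares were 5.04% in WT and 7.91% in KO, against 3.6% and 3.86% of all genes. Nol9, a kinase of ribosomal RNA precursors, rose by 2.13 ± 0.41 in WT (SE, adjusted p = 0.00618) and 2.52 ± 0.41 in KO (SE, 0.000989).

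The small subunit factors Nol10 and Rrp36 were also called in both genotypes. Nol10 rose by 0.80 ± 0.22 in WT (SE, adjusted p = 0.0415) and 1.34 ± 0.22 in KO (SE, 0.00127), and Rrp36 by 0.79 ± 0.17 (SE, 0.0124) and 0.78 ± 0.17 (SE, 0.00734). Mdn1, the large ATPase of immature large subunits, rose by 1.38 ± 0.25 in WT (SE, 0.00507), and Gtpbp4, a GTPase of large subunit assembly, by 1.68 ± 0.31 in KO (SE, 0.00263). Taf1a, a subunit of the RNA polymerase I promoter factor, rose by 0.89 ± 0.25 in KO (SE, 0.0302). Genes were named by the smallest adjusted p within a genotype, so a gene named for 1 genotype may have changed in the other too. For the late difference between the changes of the genotypes, 0 of 139 were called, with 0.0941% of all genes called (limma).

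Fewer fell late. In WT Wdr43 (-0.62 ± 0.15, SE, adjusted p = 0.0224) and the helicase Ddx52 (-0.62 ± 0.18, SE, 0.0433) were called lower. In KO Exosc10 (-0.72 ± 0.21, SE, 0.0318), a nuclease of the RNA exosome, Ddx24 (-0.60 ± 0.18, SE, 0.0389) and the shared polymerase subunit Polr2l (-0.56 ± 0.17, SE, 0.0373) were. Myc, a transcription factor among the growth regulators of ribosome synthesis, rose late by 1.12 ± 0.34 in KO (SE, adjusted p = 0.0398), and read 0.88 ± 0.34 in WT (SE, adjusted p = 0.123). Any part of Myc in the changes of the other genes was not tested.

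Over the 20 arrays, the genes whose profile was most like the mean of the 8 members were Rpl17 (Pearson r 0.929), Rps18 (0.896), Fau (0.886), Rpl37 (0.885) and Axl (0.881), of 9451 genes with all values. Of these, 4 are ribosomal proteins, and Axl is a receptor tyrosine kinase. Within the 10 WT arrays the same r ran from 0.537 (Axl) to 0.800 (Rps18), and within the 10 KO arrays from 0.458 (Rpl37) to 0.840 (Rpl17). The arrays share the pool channel and differ in width, which enters every such value.

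Leaving aside Polr1b and Nop58, a choice made after seeing their values, the 15 pairs of the other 6 genes had a median r of 0.168 within WT (n = 10 arrays) and 0.376 within KO (n = 10). The 6-probe value of Nop58 holds the discordant spot. Across all 20 arrays, the r of each gene with array width was 0.427 (Dkc1) to 0.645 (Gnl3) in the 6 and -0.52 in Polr1b, which is a description only.

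Markers of fibroblasts and of other cell types were read at 0 h beside these results. Among 12 fibroblast genes Pdgfra (1.36) and Col3a1 (0.53) were called higher in KO and Fn1 (-0.71) lower. Of these 12 genes 7 were below 0, with a median of -0.23. Among 11 macrophage genes Fcgr1 (-1.13) and Cd68 (-0.83) were called lower, but the list was split, with 6 of 11 below 0 and a median of -0.04. Of 10 epithelial, 7 endothelial and 7 muscle genes 0 were called (1, 2 and 2 at an unadjusted p under 0.05, limma). Of all 10625 genes 323 were called higher and 382 lower at 0 h, and 2213 had an unadjusted p under 0.05. In heated cells Pdgfra (1.22) and Col3a1 (0.55) were higher in KO, and Col5a1 (-0.64), the macrophage gene Itgam (-1.32), the endothelial gene Eng (-0.93) and the muscle gene Acta1 (-0.83) were lower. Below 0 in heated cells were 7 of 12 fibroblast, 7 of 11 macrophage, 5 of 7 endothelial and 6 of 7 muscle genes. With heat shock Fcgr1 was called lower in WT, by 1.59 early and 1.41 late. Of the 11 macrophage genes 5 were below 0 early and 4 late in WT, with a median of 0.04 in both windows. Lyz2, another macrophage gene, was called higher late in KO (0.66), while 8 of the 11 were below 0 there, with a median of -0.12. Late, 11 of 12 fibroblast genes were below 0 in each genotype, against 51.8% of all genes in WT and 51.9% in KO. Pdgfra was called lower late in WT (-0.63), and Col1a2 (-0.59) and Acta1 (-1.11) late in KO, where 4 of the 7 muscle genes were below 0. The mean of the fibroblast list at 0 h, relative to each gene's own mean, was 0.09 to 0.24 on WT and 0.06 to 0.21 on KO arrays, and that of the macrophage list 0.05 to 0.19 and -0.22 to 0.21. Ratios to a fibroblast pool give no absolute level, so the labelled cell type could not be checked from these values, and the part of such cells in the differences above was not tested. In bulk RNA, fewer cells of a type and less RNA per cell cannot be told apart.

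Each of the 20 arrays gave 39037 to 42220 values. Before centring the array medians lay between -0.53 and -0.18, and widths ran from 0.68 to 1.18. The KO late arrays had widths of 0.68 to 0.85 and the WT late arrays of 0.81 to 1.10, and no columns were identical. Hsf1 itself had 0 probes listing it alone, so the targeted gene itself could not be read.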

How the data were processed

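The authors deposited log ratios, 1 per probe and array, which were taken as log2. Per the labels, the sample was in Cy5 and the shared pool in Cy3. No source names the log base: values reach 10.2 in size, while 16-bit signals allow a log10 ratio of at most 4.82. Natural logarithms remain possible and would make the folds too small. Background correction and normalization within arrays are not given in the sources used here. Of 42624 probes, 21701 listed 1 gene, 1124 several and 19799 none, by the platform annotation, and 21650 of the 1-gene probes were found in the mouse reference. Of all values 3.28% were missing.

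Each array was centred on its median, and probes with at least 2 values in each of 6 groups were kept (40453, of which 20881 had 1 gene). Probes of a gene were averaged as deviations from each probe's own mean, and the mean level of the probes was added back for the ratios printed. With limma 3.58.1 in R 4.3.3, group means were fitted on 20 arrays (lmFit, eBayes, prior degrees of freedom 3.36), giving 7 contrasts, and the 14 heated arrays were fitted with time as a block (3.51). Tests were two-sided, Benjamini-Hochberg adjusted over 10625 genes of a contrast, at a threshold of 0.05. The scripts were tested on simulated data. Whether the 0 h arrays stand for different cultures is not labelled, so a p-value covers only the spread between arrays, which may be technical, and the arrays of a window differ in time. The number of arrays limits the precision.

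The members and lists were chosen with earlier results of these data known. Beyond the members, the 2 genes with the smallest adjusted p per list, contrast and direction were named, with 5 genes by likeness, called markers and heat shock genes for checks. Alternatives were centring, quantile normalization, array width, probe choice, missing-value filters, arrays in the fit, blocks and single arrays left out. Promoters are RefSeq's (GRCm38.p6). Ncl and probes with several genes were left out.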

Additional observations from a re-analysis of the deposited data

Results flagged for a closer look

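In the late window of WT, the 4 h array stood apart from the other 3 for Fbl, at a log2 ratio of 0.37 with the next value at 0.90. The gap was 0.897 of the range of the 4 arrays, above the limit for a group of 4. Such limits mark about 1 in 20 groups by chance, and 16 groups of late arrays were examined, of which 1 was marked. The arrays of this window differ in time.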

How the results depend on the processing

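Of the counts of members called, those of both early windows and of both differences between changes were 0 under every alternative run. At 0 h the count of 6 became 3 without centring, 2 with quantile normalization, 2 with scaled widths and 0 with the 6 unheated arrays alone, and ranged from 1 to 5 with 1 array left out. In WT late the count of 2 became 1 without centring, 1 with quantile normalization, 0 with scaled widths and 0 with the contrasted arrays alone, and ranged from 0 to 1 with 1 array left out. In KO late the count of 1 became 2 with scaled widths, with probes present on all arrays and with the contrasted arrays alone. It also became 2 under alternatives added after seeing the data, the median of the probes or leaving out the discordant Nop58 spot. Nop58 joined each time, and using probes present on all arrays left out that same Nop58 spot. In heated cells the count of 3 became 1 without centring, 1 with quantile normalization, 0 with 1 probe per gene and, added later, 1 without both 0.5 h arrays, and was 1 without any single array. Nip7 at 0 h turned from -0.72 to 0.014 with 1 probe per gene, where the other 2 probes tied for most values gave -0.67 and -0.46. The causes were not tested.

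The replicate block at 0 h left 0 of 8 members and 0 of all genes called, with Gnl3 at an adjusted p of 0.196. The labels do not say whether same-numbered arrays shared more than a number. Their deviations correlated at -0.0046, -0.0194 and -0.0102 over 9459 genes, and those of differently numbered arrays at -0.020 to 0.033. Such values cannot settle whether the arrays were paired.

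With 1 array left out, the counts over all genes ranged from 396 to 740 at 0 h (705 with all arrays), 0 to 37 in WT early (4), 378 to 822 in WT late (772), 0 to 6 in KO early (0), 518 to 1101 in KO late (1133), 0 to 10 and 0 to 16 for the early and late differences between changes (0 and 10), and 334 to 441 in heated cells (590). Other alternatives gave 0 to 763, 0 to 8, 164 to 872, 0 to 1, 882 to 1539, 0 to 1, 0 to 11 and 402 to 710 in the same order. At 0 h all genes split into 323 higher and 382 lower, which became 408 and 286 without centring, 376 and 232 with quantile normalization and 295 and 225 with scaled widths. The same split was 382 and 390 in WT late, and 336 and 222, 260 and 202, and 224 and 147 under those settings; in KO late it was 410 and 723, and 419 and 463 without centring. Without centring the median of all genes moved from 0.05 to 0.16 at 0 h from -0.00117 to 0.19 in WT early, from -0.05 to -0.31 for the early difference between changes, and members are read relative to it.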
